A study of Mus musculus with 13 samples.

Results

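The genes described here are the collagens and laminins of the medial amygdala. They were chosen by symbol, as every gene whose whole symbol is Col, a number, a and a number, or Lama, Lamb or Lamc and a digit. The table held 50 such genes of 16961, of which 39 were collagens and 11 were laminins. Col4a3bp has a longer symbol and was not counted. A mean of at least 10 UMIs per 1000000 in at least 1 cell class was reached by 41 members, and these are described with values. The 9 that stayed under it in every class included Col2a1, Col5a1, Col6a3, Col6a4, Col6a5, Col7a1, Col24a1 and Lama3.

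Cells came from the medial amygdala of naive C57BL/6J mice, in 6 male and 7 female libraries. Mice were 9 weeks old except in 3 libraries (2 of them male), which were at 8 weeks. They lived on a reversed light cycle and had spent a day or more housed singly, and the labels give no transgene or treatment. Tissue was dissociated by Act-seq and sequenced by Drop-seq, in which each captured mRNA is counted once by its molecular identifier (UMI). Each cell name carried a class: mural (MU), endothelial (EN), astrocyte (AS), oligodendrocyte precursor (OPC), an intermediate of precursor and oligodendrocyte (OPC-OL), oligodendrocyte (OL), microglia (MG) or neuron (N).

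Collagens are trimers of alpha chains. Fibrillar types such as I and III build the fibres of connective tissue, whereas type IV forms the network of basement membranes. Laminins are trimers of an alpha, a beta and a gamma chain that assemble into a sheet alongside the type IV network. In brain vessels basement membrane surrounds the endothelium, encloses pericytes and smooth muscle cells, and meets the endfeet of astrocytes on its outer side.

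Of 43388 deposited cells 24527 were kept, among them 764 MU and 1463 EN cells. A library held 30 to 80 MU cells with 67270 to 174200 UMIs, and 60 to 182 EN cells with 130481 to 441166 UMIs. Of 43340 distinct barcodes, 48 occurred in 2 libraries. The labels do not say whether libraries came from separate animals, so p-values measure the spread between libraries, which may be technical. The sources do not say how classes were assigned, probably from these same counts, and p-values of class comparisons are conditional on them. In 13 of 13 libraries the sex-linked genes matched the label.

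The class labels were checked against marker genes. All 10 endothelial markers were highest in EN, and all 9 pericyte and all 7 smooth muscle markers were highest in MU. The 11 fibroblast markers in the table were also all highest in MU, where they summed to 4592 ± 1517 CPM (UMIs per 1000000, SD, n = 13, range 2242 to 6878), against 43.7 ± 24.7 CPM in EN. The label mural thus covers cells with fibroblast markers, and results for MU against EN are also given without them for the 7 members that then still passed the filter. Pericyte markers summed to 16258 ± 4247 CPM in MU and to 2269.5 ± 579.98 CPM in EN. Endothelial markers summed to 36541 ± 2094 CPM in EN and to 292 ± 158 CPM in MU.

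Some members lie head to head in the genome. In the GENCODE M21 annotation of GRCm38, Col4a1 (chr8:11198423-11312826, minus strand) and Col4a2 (chr8:11312805-11449287, plus strand) have starts 21 bases apart. Col4a5 (plus strand) and Col4a6 (minus strand) are divergent on chromosome X, with RefSeq starts 1343 bases apart. The 250 bases upstream are printed for this second pair, whose members differ between MU and AS, and for Col1a2 and Col3a1, fibrillar genes that part in AS. They run 5′ to 3′ on the strand of the gene and end just before the RefSeq start (GRCm38.p6). Capitals mark the motifs searched on both strands: CCAAT for the CCAAT box, GGGCGG for the GC box and TATAAA for the TATA box.
Col4a5, chrX:141475169-141475418, plus strand: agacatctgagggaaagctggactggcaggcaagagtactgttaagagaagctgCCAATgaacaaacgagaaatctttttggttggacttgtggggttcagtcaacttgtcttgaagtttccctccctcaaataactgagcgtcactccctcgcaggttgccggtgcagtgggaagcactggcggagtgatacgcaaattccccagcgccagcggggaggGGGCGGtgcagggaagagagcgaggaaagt
Col4a6, chrX:141474077-141474326, minus strand: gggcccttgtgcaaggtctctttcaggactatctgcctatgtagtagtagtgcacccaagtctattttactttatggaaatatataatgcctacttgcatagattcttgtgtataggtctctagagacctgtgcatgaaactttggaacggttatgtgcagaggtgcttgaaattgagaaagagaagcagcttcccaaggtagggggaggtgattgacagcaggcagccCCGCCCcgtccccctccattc
Col1a2, chr6:4505368-4505617, plus strand: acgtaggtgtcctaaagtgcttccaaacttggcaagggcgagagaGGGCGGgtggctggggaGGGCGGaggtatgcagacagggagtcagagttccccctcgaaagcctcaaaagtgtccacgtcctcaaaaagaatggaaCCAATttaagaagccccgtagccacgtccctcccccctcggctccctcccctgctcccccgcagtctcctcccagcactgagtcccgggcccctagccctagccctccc
Col3a1, chr1:45311288-45311537, plus strand: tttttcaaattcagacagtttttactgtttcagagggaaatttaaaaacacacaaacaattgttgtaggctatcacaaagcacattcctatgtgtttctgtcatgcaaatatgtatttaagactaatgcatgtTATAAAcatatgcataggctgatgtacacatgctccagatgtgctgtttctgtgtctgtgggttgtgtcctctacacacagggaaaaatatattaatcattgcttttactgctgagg
The Col4a5 window held CCAAT 196 and GGGCGG 30 bases upstream of the start, and that of Col4a6 held GGGCGG on the opposite strand, 21 bases upstream. The Col1a2 window held GGGCGG at 205 and 188 bases upstream and CCAAT at 109. The Col3a1 window held TATAAA, 117 bases upstream. Of 36 members with a window in the RefSeq table, 13 held CCAAT, 21 held GGGCGG and 3 held TATAAA. Over all 32851 windows of that length the shares were 33.85%, 32.74% and 12.37%. A member counted if any of its windows held the motif, whereas these shares are per window, so the measures are not alike. No motif contains another, and a match describes letters only.

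Mural cells had the highest mean level of most members. Levels are UMIs per 1000000 UMIs of the class in a library (CPM), and UMIs of 3′-tagged transcripts count molecules, so no gene length enters. Of the 41 described members, 27 had their highest mean in MU, 5 in OPC, 4 in OPC-OL, 4 in N, 1 in MG and 0 in EN. The share of all genes that are highest in MU was not computed, so the count is a description. MU was the highest class in 6 of 13 libraries for Col14a1, 7 for Col6a1 and Col4a3 and 8 for Lama5. For others, such as Col1a2 and Lamc1, it was the highest in 13 of 13. Summed over the 50 members, the level was 4523 ± 465.9 CPM in MU and 1305 ± 162 CPM in EN (SD, n = 13 each), and the libraries of these classes did not overlap. The sum was 951 ± 107 CPM in OPC-OL, 705 ± 43.97 in OPC, 546 ± 49.8 in N, 447 ± 30.7 in AS, 287 ± 25.8 in MG and 195 ± 26.2 in OL.

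**Figure D1:**
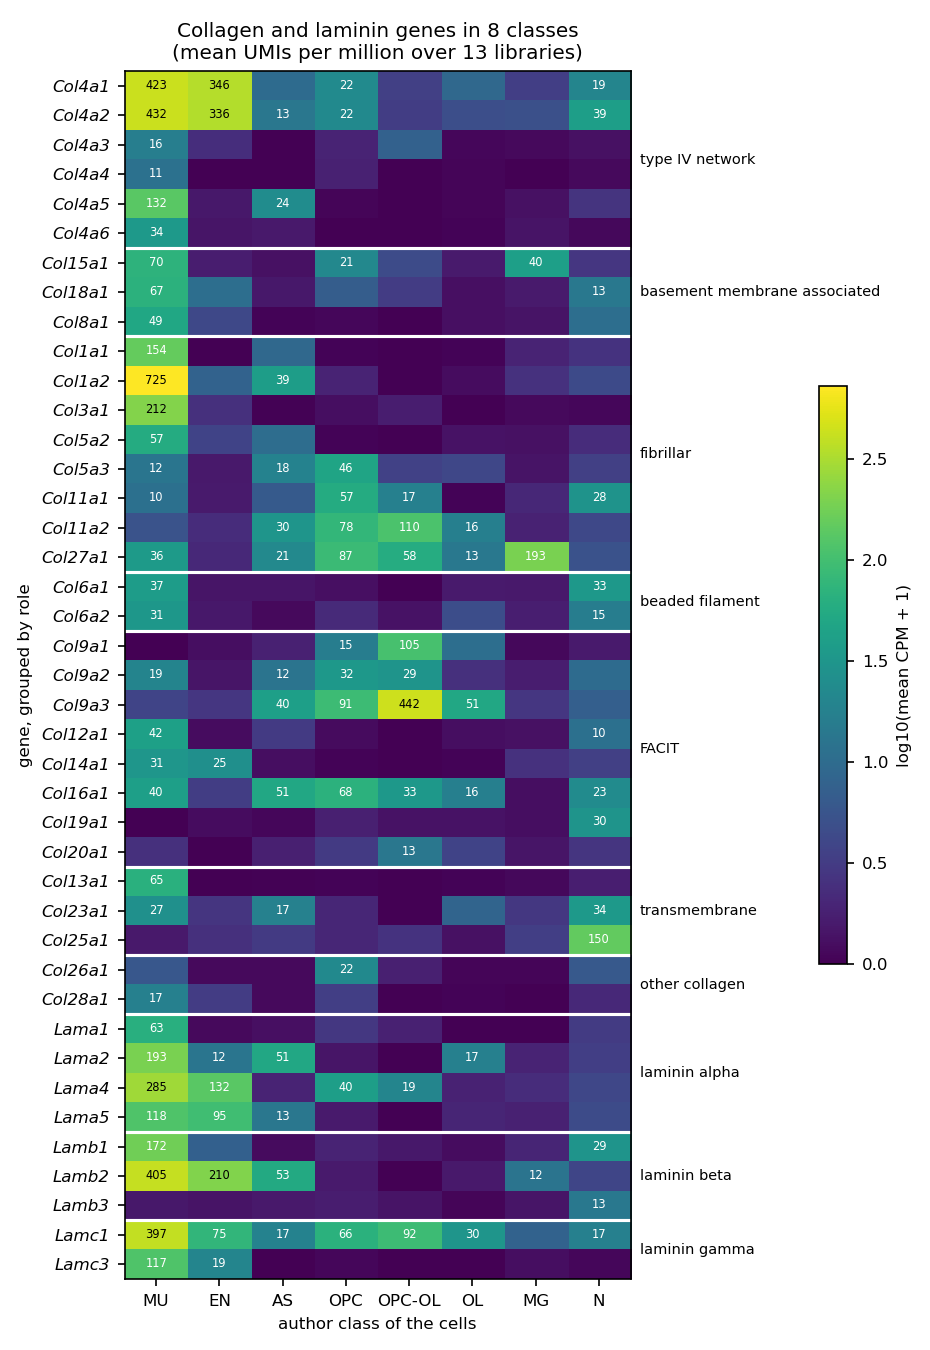
Mean level (UMIs per 1000000, 13 libraries) of the 41 members with at least 10 CPM in a class, coloured on a log scale, with members grouped by role and columns for the 8 classes. Col1a2 in MU has the highest value (725 CPM), and 27 of the 41 members are highest in MU.

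The MU and EN sums of each library were compared by edgeR's quasi-likelihood test with the library as block, which asks which vascular cell carries which chain. Of 3503 genes tested, 62% were called at an adjusted p under 0.05, 29.9% higher and 32.2% lower in MU. Among the 50 members, 11 passed the filter on low counts, and 10 of these were higher in MU and 0 lower. Their median log2 difference was 2.42, against -0.04 over all genes tested. Here and in the later fits, a member that passed only through the group where it is high had to differ, so counts and medians describe the members that passed and no more. Col1a1, Col1a2, Col3a1, Col4a5 and Lamb1, with 0, 22, 5, 2 and 25 UMIs in EN, passed through MU, so their p-values are descriptions. With no filter 32 of 47 members were called, where 32.3% of all genes were. By library ranges, 15 of 47 measured members lay wholly higher in MU and 0 wholly lower, where 4.43% of all genes lay higher and 4.33% lower.

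The main type IV chains were found in both vascular classes. Col4a1, which pairs with Col4a2 in the common type IV network, was at 241, 429 and 596 CPM in MU (lowest, median and highest library) and at 209.9, 344 and 476 CPM in EN. Col4a2 was at 259, 406 and 666 CPM in MU and at 254, 332 and 431 CPM in EN. The ranges overlapped for both genes, with MU higher in 10 of 13 libraries for Col4a1 and in 12 of 13 for Col4a2. The log2 difference was 0.33 ± 0.10 (SE) for Col4a1 (edgeR adjusted p = 0.003856). For Col4a2 it was 0.36 ± 0.09 (edgeR adjusted p = 0.0003531). Without the MU cells that hold at least 2 fibroblast markers, Col4a1 stood at 0.20 (edgeR adjusted p = 0.1215) and Col4a2 at 0.29 (edgeR adjusted p = 0.01155). Without those that hold at least 1, neither was called, with Col4a1 at 0.0721 (edgeR adjusted p = 0.6643) and Col4a2 at 0.26 (edgeR adjusted p = 0.0626). With no filter on low counts Col4a1 stood at 0.21 (edgeR adjusted p = 0.1002).

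Of the UMIs of this pair, Col4a1 made up 49.7% (708 of 1424, 47.1 to 52.3%) in MU, with the exact 95% binomial interval in brackets. It made up 50.6% (1084 of 2142, 48.5 to 52.7%) in EN and 50.98% (287 of 563, 46.8 to 55.2%) in OPC. The intervals of these 3 shares included balance, whereas those of AS, with 41.02% (121 of 295, 35.4 to 46.9%), of N, with 32.7% (222 of 678, 29.2 to 36.4%), and of OL, with 69.04% (136 of 197, 62.1 to 75.4%), did not. Between libraries the share ran from 33.3 to 100% in OL and from 21.4 to 53.8% in AS. Intervals cover counting error only.

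The other type IV chains were rare in EN. Col4a5, which joins Col4a6 in the network of smooth muscle basement membrane, was at 72.9, 136 and 196 CPM in MU and had 2 UMIs in all EN cells. The log2 difference was 6.59 ± 0.34 (SE, edgeR adjusted p = 8.848e-23), with no overlap, and Col4a5 had passed the filter through MU. Col4a6 had 56 UMIs in MU and 1 in EN. In AS, Col4a5 was at 23.5 ± 6.36 CPM (SD, n = 13), with 338 UMIs against 9 of Col4a6. Col4a6 thus made up 20.7% (16.004 to 25.98%) of the UMIs of the pair in MU and 2.59% (1.19 to 4.87%) in AS. Col4a3 and Col4a4, known from kidney basement membrane, had 27 and 20 UMIs in MU. C430014B12Rik overlaps the 3′ end of Col4a3 on the other strand and had 3 UMIs in MU, and since the sources do not say whether counting was stranded, Col4a3 is uncertain.

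Chains that sit beside the basement membrane also had higher levels in MU than in EN. Col15a1, a multiplexin that ties the membrane to the matrix, was at 20.5, 64.95 and 198 CPM in MU and had 2 UMIs in EN. Col18a1, the multiplexin from which endostatin is cut, was at 24.3, 57.4 and 154 CPM in MU and at 0, 8.98 and 22.7 CPM in EN. Neither gene overlapped between the classes. Col8a1, a short-chain collagen of vessel walls, was at 49.2 ± 29.7 CPM in MU and had 8 UMIs in EN. None of these 3 passed the filter of the fit.

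The type I and type III chains were higher in MU than in EN. Col1a2, the alpha-2 chain of type I, was at 479, 695 and 876 CPM in MU and had 22 UMIs in EN, a log2 difference of 6.59 ± 0.17 (SE, edgeR adjusted p = 2.19e-34). Col1a1, the alpha-1 chain, was at 89.2, 146 and 226 CPM in MU and had 0 UMIs in EN. It was at least 162.9-fold higher in MU by a floor of 3 UMIs over the EN group (edgeR adjusted p = 9.892e-20). Col3a1, which forms the type III homotrimer, was at 115, 219 and 346 CPM in MU with 5 UMIs in EN (6.61 ± 0.29, edgeR adjusted p = 1.351e-25). No MU library overlapped an EN library for these 3 genes, which had all passed the filter through MU. Of their summed UMIs in MU, Col1a2 made up 66.2%, Col3a1 19.7% and Col1a1 14.1%. Col5a2, a type V chain found within type I fibrils, was at 19.6, 57.4 and 104 CPM in MU.

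Other interstitial collagens were at lower levels. Col12a1, a collagen on the surface of fibrils, was at 19.2, 34.4 and 64.8 CPM in MU with 1 UMI in EN. The transmembrane collagen Col13a1 was at 19.5, 57.4 and 165 CPM in MU with 0 UMIs in EN, at least 67.44-fold higher by the floor. Col6a1 and Col6a2, chains of the beaded type VI filament, were at 37.3 ± 24.7 and 31.4 ± 15.3 CPM in MU with 2 UMIs each in EN. Col14a1, another fibril-surface collagen, did not follow this order, at 31.2 ± 27.1 CPM in MU and 25.4 ± 16.95 CPM in EN, higher in MU in 6 of 13 libraries. Col28a1 was at 16.7 ± 11.7 CPM in MU with 7 UMIs in EN.

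Among laminin alpha chains, Lama4, an alpha chain of vascular laminin, was at 170.1, 285 and 431 CPM in MU and at 91.97, 132 and 181 CPM in EN. It was higher in MU in 13 of 13 libraries (1.12 ± 0.13, edgeR adjusted p = 6.464e-11), although the ranges overlapped. Without MU cells holding at least 2 fibroblast markers the difference was 0.99 (edgeR adjusted p = 4.841e-08), and without those holding at least 1 it was 0.62 (edgeR adjusted p = 0.003204). Lama5, the other endothelial alpha chain, was at 61.6, 122 and 193 CPM in MU and at 43.1, 105 and 123 CPM in EN. Its difference of 0.28 ± 0.17 was not called (edgeR adjusted p = 0.1614), with MU higher in 8 of 13 libraries. Without MU cells holding at least 2 fibroblast markers it was 0.71 (edgeR adjusted p = 0.0003621), and in cells with at least 1000 genes it was 0.73 (edgeR adjusted p = 0.0008038). Lama2, the alpha chain of merosin, was at 29.4, 178 and 318 CPM in MU and at 0, 8.97 and 30.2 CPM in EN. Lama1, prominent in embryonic basement membranes, was at 62.8 ± 35.4 CPM in MU with 1 UMI in EN.

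Beta and gamma chains complete the trimers. Lamb2 was at 201, 402 and 533 CPM in MU and at 159, 203 and 305 CPM in EN (0.97 ± 0.10, edgeR adjusted p = 1.836e-11), with overlap. Lamb1, the other common beta chain, was at 89.4, 155 and 351 CPM in MU with 25 UMIs in EN (4.43 ± 0.29, edgeR adjusted p = 7.531e-17). Lamc1, the gamma chain of most laminins, was at 225, 369.8 and 746 CPM in MU and at 37.3, 76.4 and 115 CPM in EN (2.42 ± 0.13, edgeR adjusted p = 4.654e-22). The classes did not overlap for Lamb1 or Lamc1, and Lamb1 had passed the filter through MU. Without MU cells holding at least 2 fibroblast markers, Lamb2 stood at 1.23 (edgeR adjusted p = 7.254e-15) and Lamc1 at 2.32 (edgeR adjusted p = 5.974e-21). Lamc3, another gamma chain, was at 51.96, 104 and 260.1 CPM in MU and at 0, 14.3 and 46.5 CPM in EN, again without overlap.

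**Figure D2:**
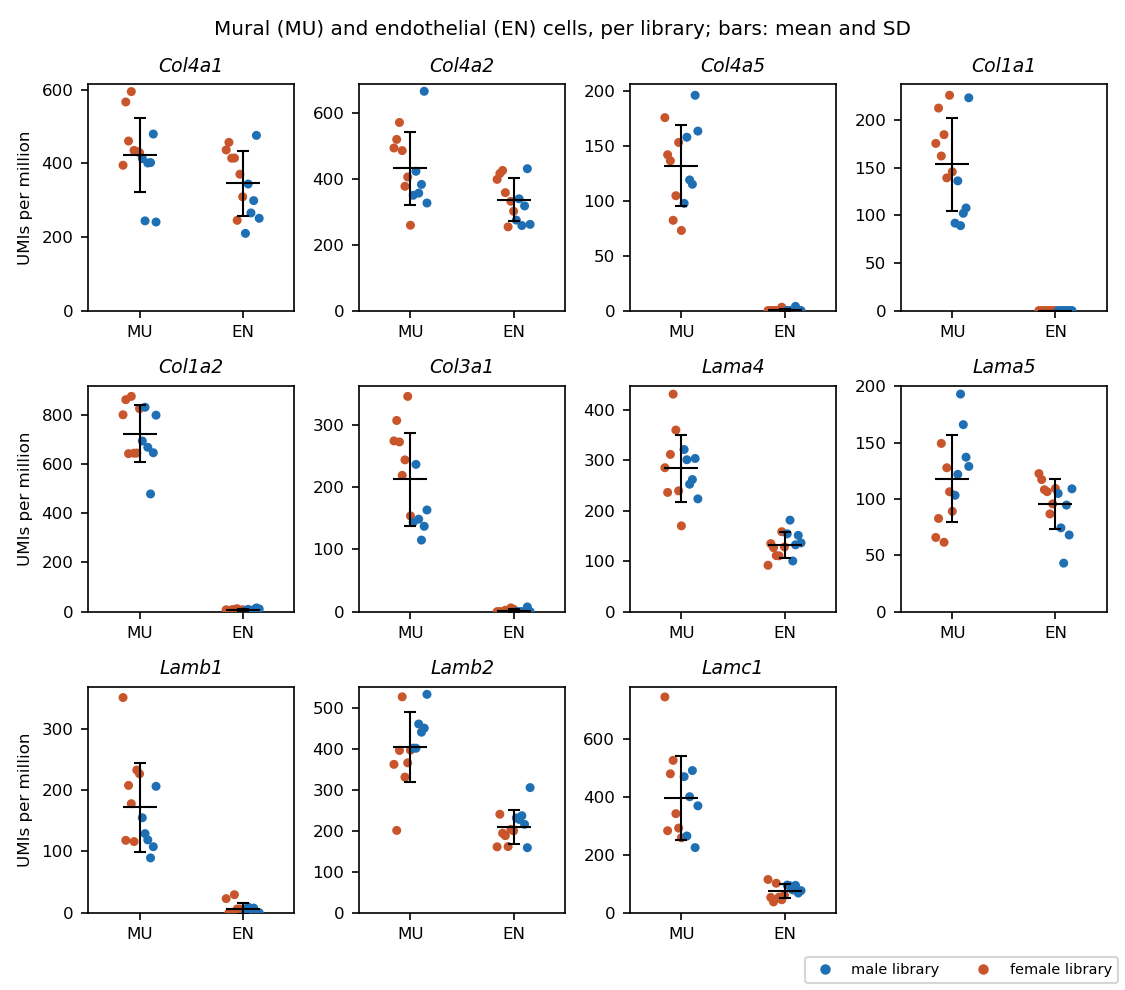
Level (UMIs per 1000000, vertical axes from 0) in MU and EN cells of the 11 members that passed the filter, 1 point per library, with the mean and SD over 13 libraries. Col1a1, Col1a2, Col3a1 and Col4a5 lie near 0 in EN, whereas the points of Col4a1, Col4a2 and Lama5 overlap between the classes.

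Shares of UMIs describe the laminin transcripts of each class, and the makeup of laminin protein was not measured. In EN, Lama4 made up 53.9% (50.3 to 57.4%) of the alpha chain UMIs and Lama5 39.5% (36.1 to 43.1%). In MU, Lama4 made up 43.9% (40.96 to 46.9%), Lama2 29.2% (26.5 to 31.9%), Lama5 17.7% (15.5 to 20.1%) and Lama1 9.25% (7.61 to 11.1%). Lamb2 made up 96.2% (94.5 to 97.5%) of the beta chain UMIs in EN and 70.5% (67.5 to 73.3%) in MU. Lamc3 made up 20.9% (16.5 to 25.97%) of the UMIs of Lamc1 and Lamc3 in EN and 22.8% (20.04 to 25.7%) in MU, intervals that overlap.

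**Figure D3:**
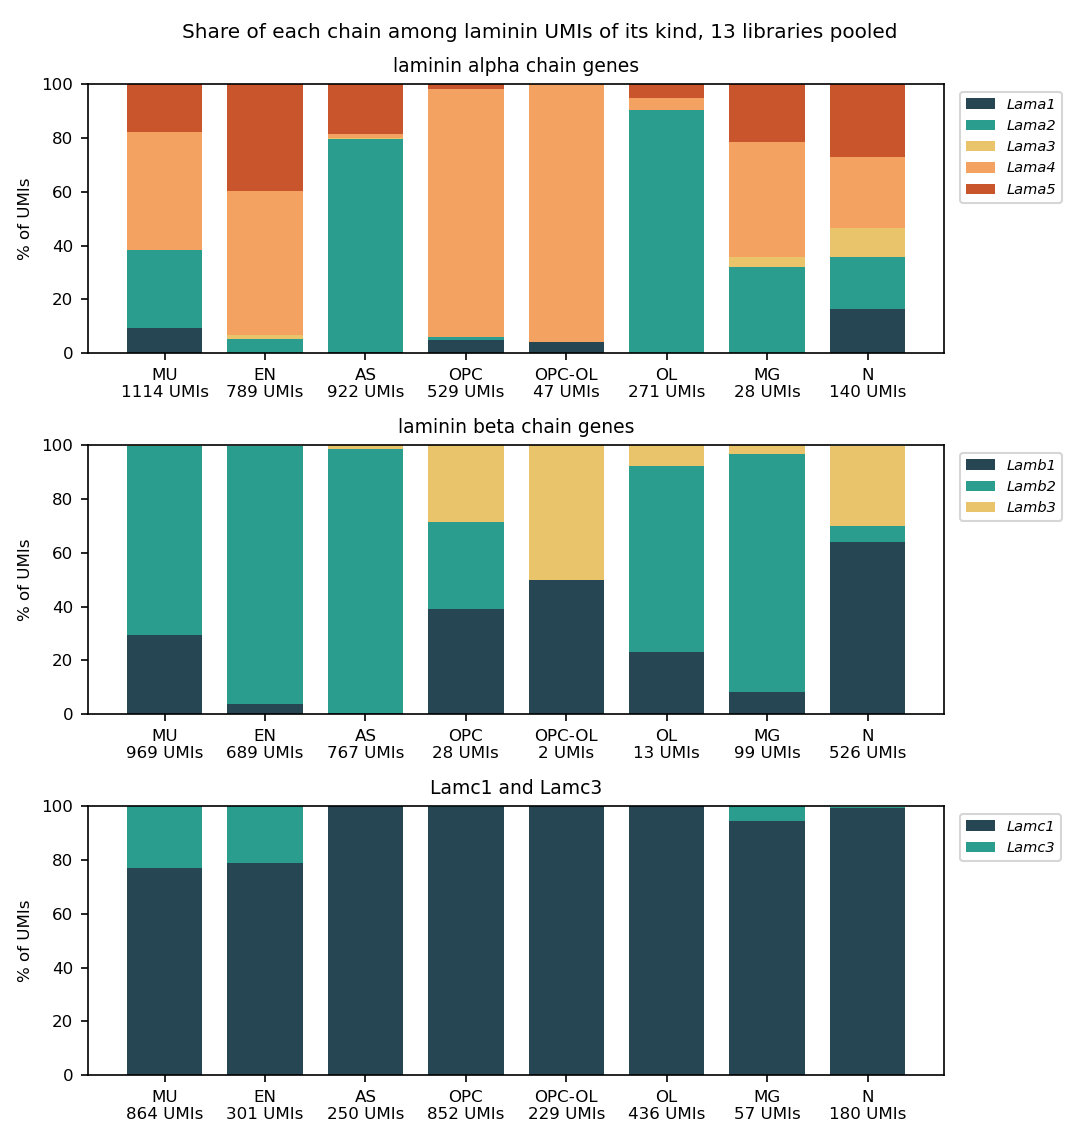
Share of each laminin gene (percent of the UMIs of its kind of chain, for gamma chains of Lamc1 and Lamc3, 13 libraries pooled) in the 8 classes, with the UMI total under each bar. Lama4 and Lama5 fill most of the EN alpha bar, Lama2 most of the AS bar (79.3%) and Lama4 most of the OPC bar (92.6%), and the beta bars of OPC, OPC-OL and OL rest on 28, 2 and 13 UMIs.

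The MU class was then divided by marker genes that are not members. Cells with UMIs of at least 2 fibroblast markers (among them Dcn, Lum, Slc6a13 and Igf2) numbered 242 of 764 (31.7%), 9 to 26 per library. Of these 88 had exactly 2 markers, and 202 other cells had exactly 1, so the division is a range and not a cell type. Of the other MU cells, 301 had at least 3 UMIs of Acta2, Tagln and Myh11 together, and 221 remained. Pericyte markers summed to 41885 ± 4360.3 CPM in the remaining cells, 7325 ± 2526 CPM in smooth muscle marker cells and 16628 ± 7184 CPM in cells with fibroblast markers. The last also held smooth muscle markers at 11555 ± 9849 CPM, and the part of these in the values below was not tested. Median UMIs per cell were 1781.5 with fibroblast markers, 2368 with smooth muscle markers and 1177 in the remaining cells. The same fibroblast rule found 10 EN, 16 AS, 2 OPC, 6 MG and 20 N cells.

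Cells with fibroblast markers held most UMIs of several interstitial and laminin chains. They held 254 of 256 UMIs of Col1a1, 309 of 357 of Col3a1, 888 of 1199 of Col1a2, 101 of 106 of Col13a1 and 213 of 285 of Lamb1. They held 115 of 115 UMIs of Col15a1, 103 of 103 of Lama1, 70 of 70 of Col12a1 and 57 of 57 of Col6a1. Smooth muscle marker cells held 56 of 58 UMIs of Col14a1, 170 of 197 of Lama5 and 462 of 683 of Lamb2. Over all genes, cells with fibroblast markers held 562233 of the 1677429 UMIs of MU and smooth muscle marker cells 828709. The remaining cells had the highest mean levels of Lama2, Lama4 and Lamc1, at 508 ± 174, 649.98 ± 169 and 783 ± 340.5 CPM (SD, n = 13).

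Against the other MU cells of the same library, 9 members were tested, of which 8 were higher and 1 lower in cells with fibroblast markers (edgeR). Col1a1, with 254 of its 256 UMIs in these cells, and Col3a1 could pass the filter through them alone. Of 1105 genes 37.6% were called, 19.3% higher and 18.4% lower. Without TMM scaling, an alternative chosen after seeing the data that moved the median of all genes to -0.16, 5 were higher and 1 lower. In that fit 440 of the 1105 genes were called. Col1a1 was at 249.6, 481 and 999 CPM in cells with fibroblast markers and at 0 to 19.6 CPM in the others, a log2 difference of 7.27 ± 0.32 (SE, edgeR adjusted p = 1.028e-15). Col3a1 was at 234, 571 and 1017 CPM against 0 to 81.6 CPM (3.89 ± 0.27, edgeR adjusted p = 9.779e-12). Col1a2 was at 954, 1584 and 2381 CPM against 215 to 389.7 CPM (2.78 ± 0.14, edgeR adjusted p = 2.026e-14). For these 3 fibrillar genes the ranges did not overlap. With cells holding at least 2 fibroblast markers left out of MU, Col1a2 was still 5.21 higher in MU than in EN on the log2 scale (edgeR adjusted p = 1.897e-26), while Col1a1 and Col3a1 no longer passed the filter.

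The basement membrane chains that were tested differed less between these cells, but the filter left out others. Lama1 was at 202 ± 124 CPM with fibroblast markers and 0 CPM in the other MU cells, and Lamb1 at 423 ± 237.5 and 65.2 ± 37.7 CPM. Both genes were higher in 13 of 13 libraries. Lama5, at 44.9 ± 54.6 and 156 ± 44.98 CPM, was lower in 13 of 13. Lama2 was 1.11 ± 0.21 higher with fibroblast markers (SE, edgeR adjusted p = 0.0001304), in 10 of 13 libraries, and Col4a1 0.63 ± 0.17 higher (edgeR adjusted p = 0.003655), in 9 of 13. Lamb2 fell by 0.64 ± 0.18 (edgeR adjusted p = 0.00481), in 11 of 13 libraries. Lama4 (0.66 ± 0.20, edgeR adjusted p = 0.01121), Lamc1 (0.58 ± 0.17, edgeR adjusted p = 0.009692) and Col4a2 (0.46 ± 0.15, edgeR adjusted p = 0.01579) were also called. Without TMM they lost the call, at 0.49 (edgeR adjusted p = 0.05829), 0.40 (edgeR adjusted p = 0.06627) and 0.28 (edgeR adjusted p = 0.1492). Col4a2 also lost its call without male replicate 4 (edgeR adjusted p = 0.05102) and without female replicate 4 (edgeR adjusted p = 0.05451). With at least 3 markers Lama4 (edgeR adjusted p = 0.09708) and Col4a2 (edgeR adjusted p = 0.1516) were not called. The other MU cells mix smooth muscle marker cells with the remaining cells. Lama2 averaged 292 CPM with fibroblast markers, 25.7 CPM in smooth muscle marker cells and 508 CPM in the remaining cells. In that order Lama4 averaged 359, 123 and 650 CPM, Lamc1 480, 216 and 783 and Col4a1 517, 326 and 552. Each of these genes thus averaged less than in the remaining cells. Lamb2 averaged 283, 554 and 244 CPM, and Col4a2 486, 428 and 357.

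Smooth muscle marker cells were set against the remaining cells. Of 6 members tested, 1 was higher and 4 were lower (edgeR), where 68.9% of 537 genes were called, 36.1% higher and 32.8% lower. Lama4 was at 23.3, 119 and 301 CPM in smooth muscle marker cells and at 421, 592 and 918 CPM in the remaining cells (-2.54 ± 0.22, edgeR adjusted p = 5.983e-15), with no overlap. Lamc1 differed by -1.92 ± 0.20 (edgeR adjusted p = 2.731e-12), Col1a2 by -1.09 ± 0.23 (edgeR adjusted p = 4.33e-05) and Col4a1 by -0.90 ± 0.20 (edgeR adjusted p = 6.176e-05). Lamb2 was the 1 higher member (0.98 ± 0.21, edgeR adjusted p = 4.391e-05), and Col4a2 differed by 0.17 ± 0.22 (edgeR adjusted p = 0.4866). Below the filter, Lama5 was at 206 ± 64.1 CPM against 16.7 ± 28.7, and Lama2 at 25.7 ± 23.8 CPM against 508 ± 174. Neither Lama5 nor Lama2 overlapped between these cells.

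**Figure D4:**
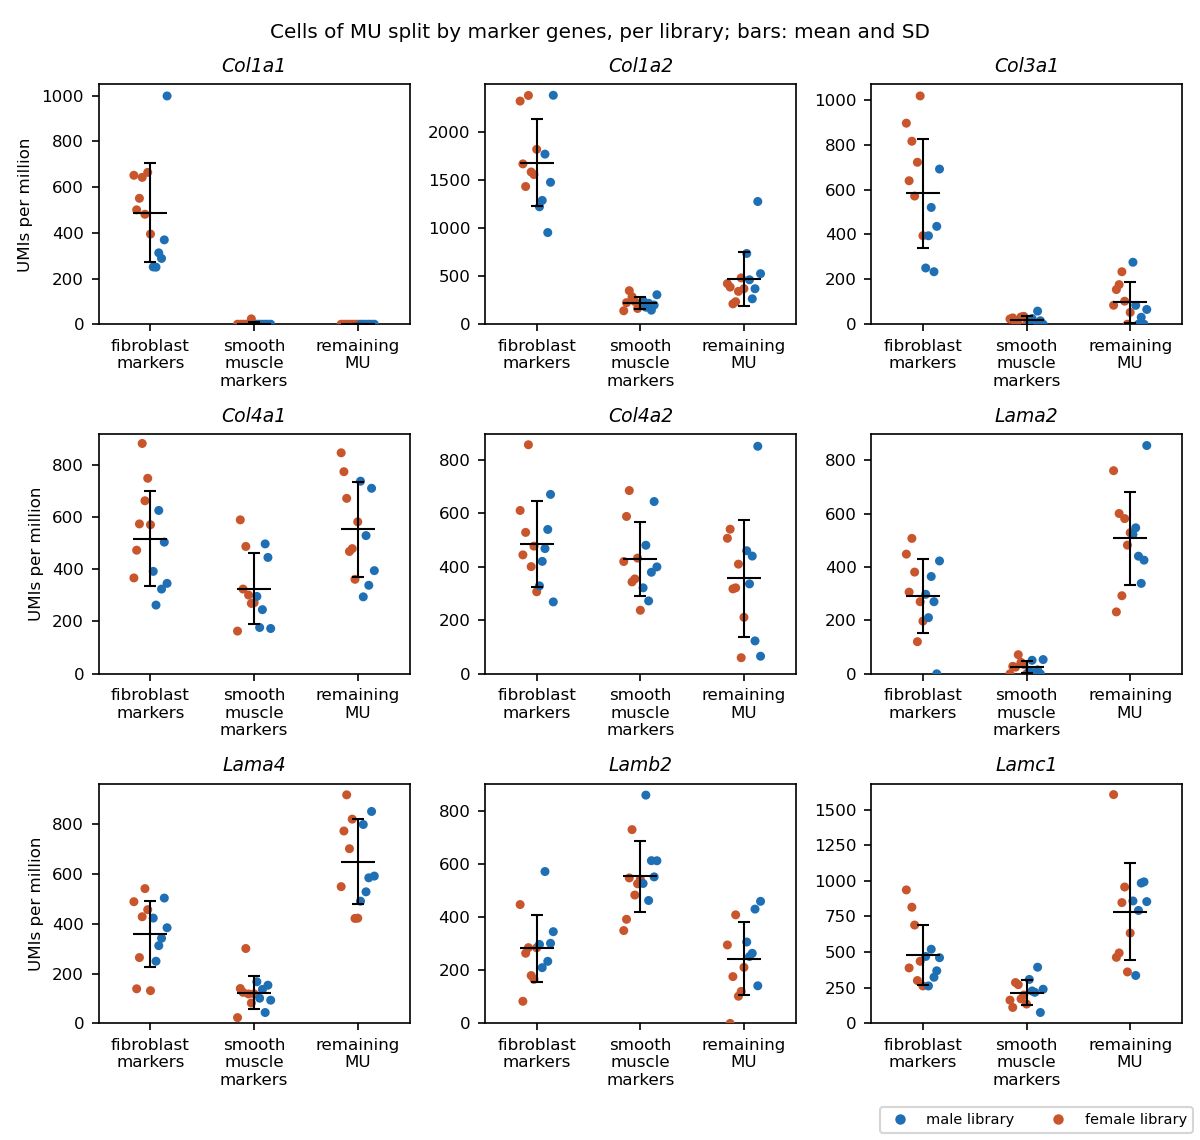
Level (UMIs per 1000000, vertical axes from 0) of 9 members in MU cells with fibroblast markers, MU cells with smooth muscle markers and the remaining MU cells, 1 point per library, with the mean and SD over 13 libraries. Cells with fibroblast markers are the highest for Col1a1, smooth muscle marker cells for Lamb2 and the remaining cells for Lama4.

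Genes that act with these chains were taken from 3 lists. Of 23 basement membrane partners 13 were tested between MU and EN, 10 higher and 3 lower in MU, where 29.9% of all genes tested were higher and 32.2% lower. Genes such as Lum and Efemp1, at 0.230 and 0 CPM in EN, passed the filter through MU and had to differ, so the counts of the 3 lists are descriptions. The linker Nid1 was 2.56 ± 0.16 higher (edgeR adjusted p = 1.611e-19), whereas fibronectin, Fn1, was at 8.13 ± 16.8 CPM in MU and 604 ± 83.6 CPM in EN (edgeR adjusted p = 1.028e-19). Dcn and Lum, among the 10, are fibroblast markers too. Of 29 measured genes of collagen synthesis and crosslinking 11 were tested, 5 higher, 1 lower and 5 not called. The collagen chaperone Serpinh1 was at 474 ± 76.5 CPM in MU and 203 ± 32.1 CPM in EN (1.23 ± 0.10, edgeR adjusted p = 5.45e-16). Of 20 measured receptors 8 were tested, 6 higher and 2 lower. The laminin-binding integrin chain Itga6 was at 5.29 ± 10.8 CPM in MU and 383 ± 75.6 CPM in EN, and Itga7, another, at 149.6 ± 48.3 and 3.66 ± 4.92 CPM.

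Astrocytes, on the outer side of the vascular basement membrane, were compared with EN in the same way. Of 7729 genes tested between AS and EN, 77.5% were called by edgeR, 40.4% higher and 37.2% lower in AS. Of 10 members tested, 4 were higher and 6 lower. Col9a3, Col11a2 and Col16a1, with 5, 4 and 9 UMIs in EN, passed through AS and Lama4, with 12 UMIs in AS, through EN. Lama2, averaging 12.1 CPM in EN, also passed mainly through AS. Col4a1, Col4a2, Lama5 and Lamc1, averaging 8.90, 12.8, 12.8 and 17.4 CPM in AS, passed mainly through EN. Of the 10, only Lamb2 was well above the filter in both classes, so the other differences are descriptions. With no filter 32 of 48 were called, where 59.9% of all genes were. By library ranges 9 of 48 measured members lay wholly higher and 6 wholly lower, against 12.4% and 10.3% of all genes. By these measures the shares of members lay near the background, so the values below describe single genes. Lama2 was at 38.3, 51.4 and 62.2 CPM in AS and at 0, 8.97 and 30.2 CPM in EN (2.18 ± 0.22, edgeR adjusted p = 3.528e-15). Col16a1 (4.22 ± 0.30) and Col9a3 (4.59 ± 0.37), which bind to fibrils, and the minor fibrillar chain Col11a2 (4.48 ± 0.41) were also higher. Lama4 fell by 6.95 ± 0.26, Col4a1 by 5.17 ± 0.13, Col4a2 by 4.65 ± 0.12, Lama5 by 2.86 ± 0.17, Lamc1 by 1.99 ± 0.17 and Lamb2 by 1.88 ± 0.10. For all 10 genes the classes did not overlap.

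In AS, Lama2 made up 79.3% (76.5 to 81.9%) of the alpha chain UMIs and Lamb2 98.2% (96.96 to 98.999%) of the beta chain UMIs. Lamb2 was at 53.02 ± 8.36 CPM and Lamc1 at 17.4 ± 5.32 CPM. Gm48084, not used here, overlaps the 3′ end of Lama2 on the other strand, so Lama2 is uncertain to that extent.

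Astrocytes had type I but almost no type III transcripts. Col1a2 was at 20.1, 37.5 and 57.9 CPM in AS and Col1a1 at 3.705, 9.93 and 11.6 CPM, with 572 and 120 UMIs, while Col3a1 had 1 UMI. Both type I chains were found in 13 of 13 libraries. Col3a1 made up 0.144% (0.00365 to 0.801%) of the UMIs of the 3 genes in AS and 19.7% (17.9 to 21.6%) in MU. In OPC, whose cells had a median of 2669 UMIs against 1810 in AS, Col1a2 had 12 UMIs.

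The oligodendrocyte lineage carried minor fibrillar and fibril-associated chains. Of 10108 genes tested between OPC and OL, 80.9% were called by edgeR, 41.5% higher and 39.4% lower in OPC. Of 14 members tested, 11 were higher, 1 lower and 2 not called. Col11a1, Col26a1 and Lama4, with 1, 2 and 12 UMIs in OL, passed through OPC, and Lama2, with 6 in OPC, through OL. Col9a2, Col5a3 and Col4a2, averaging 1.47, 3.04 and 3.86 CPM in OL, also passed through OPC. The differences of all these genes are descriptions. With no filter 23 of 49 were called, below the 65.6% of all genes. By library ranges 12 of 49 lay wholly higher and 2 wholly lower, against 28.7% and 6.44% of all genes, so by this measure the share of members lay near the background. Col11a1, a type XI chain, was at 39.7, 55.9 and 71.9 CPM in OPC and had 1 UMI in OL (7.80 ± 0.29, edgeR adjusted p = 1.413e-32), with 16.8 ± 8.56 CPM in OPC-OL. Its partner Col11a2 was at 59.3, 74.3 and 101 CPM in OPC, 73.6, 107 and 143 CPM in OPC-OL and 12.6, 15.2 and 22.6 CPM in OL. Neither overlapped between OPC and OL. Col26a1 was 5.97 ± 0.37 higher in OPC, Col9a2 3.66 ± 0.24, the type V chain Col5a3 3.15 ± 0.18, Col27a1 2.02 ± 0.10 and Col16a1 1.36 ± 0.11. Col20a1, a fibril-associated collagen, was at 12.6 ± 9.71 CPM in OPC-OL.

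Basement membrane chains also parted these cells. Lama4 was at 27.4, 37.1 and 63.6 CPM in OPC with 12 UMIs in OL (4.74 ± 0.28, edgeR adjusted p = 1.181e-21). Lama2 had 6 UMIs in OPC and 0 in OPC-OL, and was at 11.9, 15.6 and 26.7 CPM in OL (-5.38 ± 0.32, edgeR adjusted p = 4.467e-23). Neither gene overlapped between OPC and OL. Col4a2 (1.74 ± 0.22), Col4a1 (0.73 ± 0.20) and Lamc1 (0.52 ± 0.10) were higher in OPC. Lamc1 was at 66.4 ± 15.4 CPM in OPC and 91.6 ± 18.8 CPM in OPC-OL, whereas beta chains summed to 2.24 ± 1.006 and 0.957 ± 2.36 CPM.

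Of the 3 chains of type IX, a fibril-surface collagen, Col9a3 and Col9a1 were highest in OPC-OL, while Col9a2 was at 32.2 ± 4.05 CPM in OPC and 29.1 ± 12.1 CPM in OPC-OL, with overlap. Col9a3 was at 75.2, 86.9 and 109 CPM in OPC, 337, 429 and 581 CPM in OPC-OL and 23.8, 49.1 and 76.8 CPM in OL. Col9a1 was at 7.52, 15.4 and 20.1 CPM in OPC, 52.8, 103 and 182 CPM in OPC-OL and 3.48, 7.35 and 21.5 CPM in OL. OPC-OL was the highest class in 13 of 13 libraries for Col9a3 and Col9a1, without overlap with OPC. Between OPC and OL, Col9a3 (0.16 ± 0.11, edgeR adjusted p = 0.2041) and Col9a1 (edgeR adjusted p = 0.991, SE 0.19) were not called. Without TMM scaling, which moved the median of all genes to 0.73, they stood at 0.85 (edgeR adjusted p = 1.204e-07) and 0.69 (edgeR adjusted p = 0.0004607). Tcfl5, not used here, overlaps the 3′ end of Col9a3 on the other strand, so Col9a3 is uncertain in that respect.

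**Figure D5:**
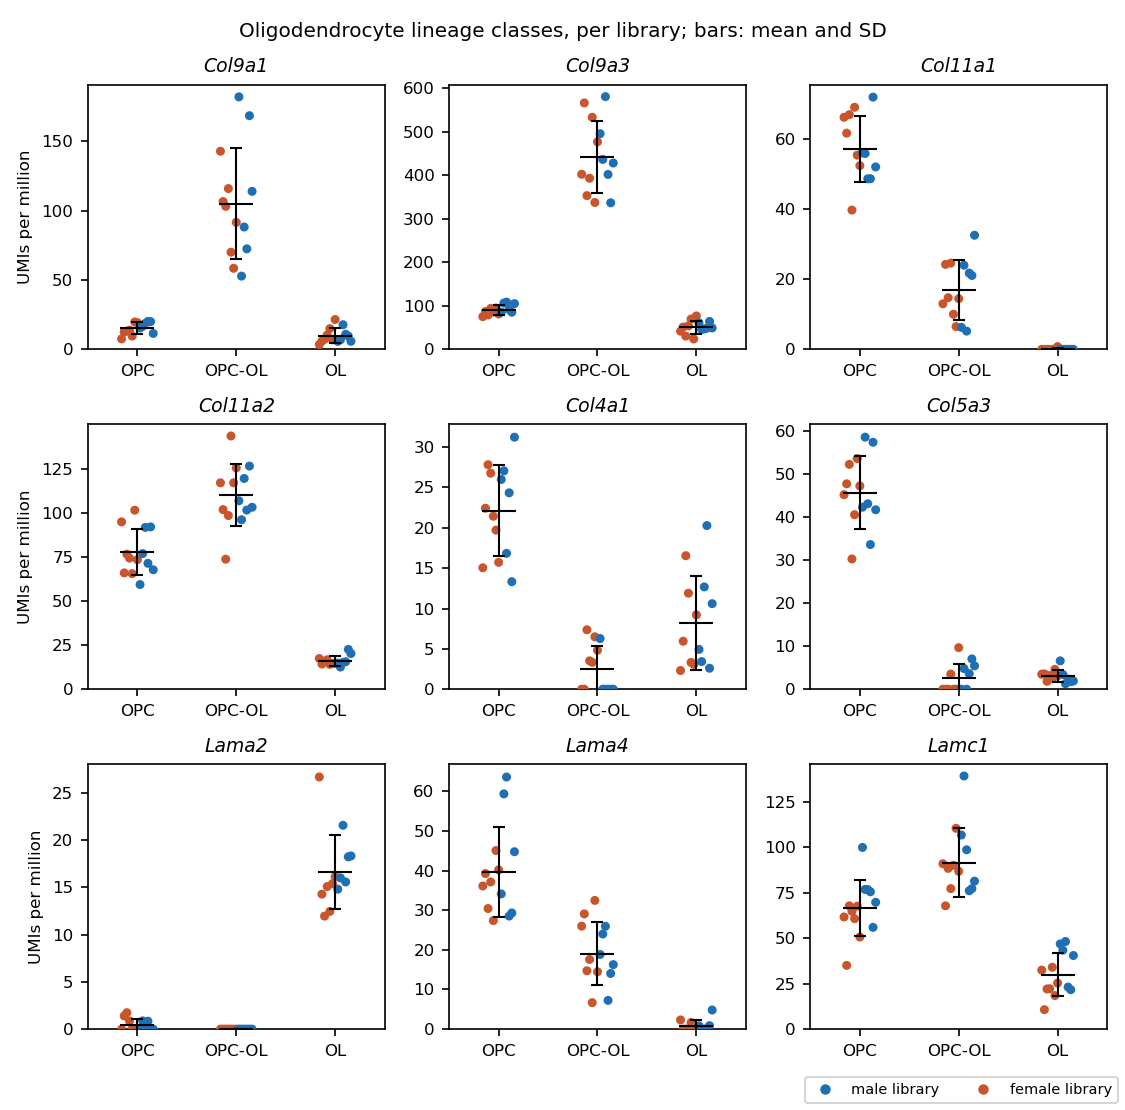
Level (UMIs per 1000000, vertical axes from 0) of 9 members in OPC, OPC-OL and OL, 1 point per library, with the mean and SD over 13 libraries. Col9a1 and Col9a3 are highest in OPC-OL, Col11a1 and Lama4 fall from OPC to OL, and Lama2 is near 0 except in OL.

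Of the collagens, Col27a1 and Col15a1 reached 10 CPM in microglia. Col27a1, a fibrillar chain known from cartilage, was at 158, 196 and 232 CPM in MG and at 65.4, 84.5 and 109 CPM in OPC, the next class, with no overlap. Col15a1 was at 22.7, 39.9 and 58.9 CPM in MG, which overlapped MU. In 106 MG cells with at least 2 perivascular macrophage markers each gene had 1 UMI, against 1497 and 300 in the other 3621 MG cells. The 106 cells held 279638 UMIs in all and the others 7430727, so these counts differ in depth too. This division was made after seeing the data.

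In neurons the transmembrane collagen Col25a1 was at 99.4, 149 and 206 CPM, and the next class, MG, averaged 2.43 CPM. Col19a1, a fibril-associated collagen, was at 5.53, 30.03 and 55.8 CPM in N and averaged under 1 CPM in every other class, as did Lamb3, a beta chain of skin laminin, at 5.56, 11.1 and 24.2 CPM in N. Col23a1, another transmembrane collagen, was at 33.96 ± 12.8 CPM in N and 26.5 ± 15.2 CPM in MU, with overlap. Neurons with Slc32a1, the vesicular GABA transporter, and without Slc17a6, a vesicular glutamate transporter, held Col25a1 at 229.8 ± 37.7 CPM, against 103 ± 48.7 CPM in neurons of the reverse pattern, higher in 13 of 13 libraries. The order was opposite for Col6a2 (8.31 ± 5.75 and 23.7 ± 9.74 CPM, lower in 13 of 13 libraries) and Col19a1 (14.96 ± 13.98 and 42.4 ± 28.5 CPM, lower in 11 of 13). This division of N was made after seeing the data and is given without a test. It leaves out 938 neurons with neither transporter and 51 with both.

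The sexes were compared within each class, a contrast that the class names did not use. By edgeR's quasi-likelihood test 0 of 78 member tests over the 8 classes were called, and 12 had an unadjusted p under 0.05. That threshold was passed by 6.53% of all genes in MU, 11.1% in EN, 10.4% in AS, 6.07% in OPC, 3.89% in OPC-OL, 7.79% in OL, 7.24% in MG and 6.13% in N. The share called after adjustment was 0.123% in MU, 1.28% in EN, 1.16% in AS, 0.131% in OPC, 0.0889% in OPC-OL, 0.261% in OL, 0.349% in MG and 0.0623% in N. DESeq2 and limma voom also called 0 members in each class.

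In MU, 4 of 13 tested members had an unadjusted p under 0.05, all 4 with lower estimates in males. Col3a1 was at 115, 146 and 237 CPM in males (lowest, median and highest of 6) and at 154, 273 and 346 CPM in females (of 7), a male minus female log2 difference of -0.70 ± 0.20 (SE, edgeR adjusted p = 0.2182). Col1a1 was at 89.2, 105 and 224 CPM in males and 139, 176 and 226 CPM in females (-0.48 ± 0.23, edgeR adjusted p = 0.7074). The sexes overlapped for both, as they did for Col4a1 (-0.38 ± 0.17, edgeR adjusted p = 0.6184) and Lamb1 (-0.57 ± 0.24, edgeR adjusted p = 0.5948). Beside this, cells with at least 2 fibroblast markers made up 29.98% ± 5.196 of male and 32.5% ± 3.19 of female MU cells (SD, n = 6 and 7). Fibroblast markers summed to 4108 ± 1791 CPM (2242 to 6878) in male and 5007 ± 1222 CPM (3561 to 6454) in female MU cells. Without MU cells holding at least 2 fibroblast markers, Col4a1 stood at -0.20 between the sexes (edgeR adjusted p = 0.9459). Col1a1, Col3a1 and Lamb1 did not pass the filter of that fit, so the part of these cells in their values was not tested.

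In EN, 0 of 6 tested members had an unadjusted p under 0.05. A term for whether the difference of MU and EN depends on sex called 0 of 17 members, where 0% of 4806 genes were called. The unadjusted p was under 0.05 for 6.47% of all genes and for 2 of the 17, Col18a1 (-1.39 ± 0.65, edgeR adjusted p = 0.7489) and Lama5 (0.76 ± 0.33, edgeR adjusted p = 0.7204). Lama5 was at 103, 133 and 193 CPM in male and 61.6, 89.1 and 149 CPM in female MU cells. In EN it was at 43.1, 84.5 and 109 CPM in males and 86.8, 108 and 123 CPM in females. The sexes overlapped in both classes. Smooth muscle marker cells held 170 of 197 Lama5 UMIs of MU. Smooth muscle markers summed to 29254 ± 6761 CPM (23352 to 37491) in male and 24973 ± 3525 CPM (20034 to 28947) in female MU cells, and pericyte markers to 14420 ± 4659 and 17833 ± 3422 CPM. Their part in the Lama5 values was not tested.

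Among neurons, Col25a1 was at 154, 167 and 206 CPM in males and at 99.4, 135 and 149 CPM in females (0.40 ± 0.13, edgeR adjusted p = 0.6935). The libraries of the sexes did not overlap, but the share of all genes that do so in N was not computed. The adjusted p was not near the threshold. Neurons with Slc32a1 held more Col25a1 than those with Slc17a6, and the part of the makeup of N in this value was not tested. Col23a1 (-0.64 ± 0.22) and Col6a1 (-0.63 ± 0.22) had lower estimates in males, with the same edgeR adjusted p. Lamc1 had estimates of 0.37 ± 0.13 in OPC (edgeR adjusted p = 0.4925), 0.59 ± 0.23 in OL (edgeR adjusted p = 0.4484) and -0.63 ± 0.28 in N (edgeR adjusted p = 0.7818). Col16a1 in AS stood at -0.39 ± 0.14 (edgeR adjusted p = 0.219) and Col15a1 in OPC at 0.55 ± 0.21 (edgeR adjusted p = 0.6104).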

How the data were processed

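The authors deposited UMI counts per gene and cell, as whole numbers with no normalization. Per the submitters' processing notes, bcl2fastq 2.17.1.14 and STAR 2.5.0a were used with the mm10 build. UMI collapsing, stranded counting, cell selection and class assignment are not given in the sources. Library and class were read from the cell names.

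Cells with under 500 detected genes were left out, as were 281 doublets (1.133%) that Scrublet in scanpy 1.11.5 marked within libraries. Counts were summed per library and class where at least 10 cells (5 for divisions of MU) were present. CPM carry no further scaling. Tests were two-sided edgeR 4.0.16 quasi-likelihood F tests in R 4.3.3 (TMM, filterByExpr, robust), with library as block in class contrasts and Benjamini-Hochberg adjustment across each whole table. An SE is the log2 difference over the square root of F. DESeq2 1.42.0 and limma 3.58.1 were alternatives, and the fits were tested on simulated data.

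Members were named by the 10 CPM minimum, or by an unadjusted p under 0.05 between the sexes. Members and lists were chosen with earlier results of these data known. One low member is not reported here by name. MU and EN sums are paired because they come from the same library, and their deviations correlated at 0.023 to 0.296.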

Additional observations from a re-analysis of the deposited data

Results flagged for a closer look

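Levels of the 11 members tested between MU and EN were examined for single libraries far from the rest, in 34 groups of male or female libraries with a mean of at least 50 CPM. By Dixon's 95% critical value 2 libraries stood apart, where chance marks about 1 in 20 groups. Col1a1 in MU was 224 CPM in male replicate 6, and the other male libraries lay between 89.2 and 136 CPM. Col4a2 in MU was 666 CPM in male replicate 5, and the other male libraries lay between 327 and 423 CPM.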

How the results depend on the processing

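Called members of the class comparisons kept their direction under every alternative run: DESeq2, limma voom, no TMM scaling, no filter, all deposited cells, doublets kept, at least 1000 genes, no replicate block and each library left out. With no filter on low counts the called members were 32 of 47 tested for MU against EN, 32 of 48 for AS against EN and 23 of 49 for OPC against OL, where 32.3%, 59.9% and 65.6% of all genes were called. For MU against EN they were 6 and 5 of 7 tested without MU cells holding at least 2 or at least 1 fibroblast markers, as Col4a1 lost its call in both and Col4a2 in the second. Leaving out 1 library gave 10 to 11 for MU against EN, 8 to 11 for AS against EN, 12 to 13 for OPC against OL, 8 to 9 for cells with fibroblast markers, 4 to 6 for smooth muscle marker cells and 0 in each class for the sexes. For the first 3 contrasts 11 to 12, 8 to 11 and 14 to 15 members were tested. Shares of all genes are not set beside these counts or those without MU cells holding fibroblast markers, so they are descriptions. Col9a1 between OPC and OL, not called, changed sign to 0.11 with DESeq2, 0.69 without TMM, 0.029 with doublets kept, and 0.05, 0.02, 0.10 and 0.13 without male replicate 3 and female replicates 4, 5 and 7 (range -0.080 to 0.13 over libraries left out). The cause was not tested. Col9a3 was called without female replicate 7 (0.24).

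Of 177 alternative sex fits 1 called a member: with the replicate number as a block, Col3a1 in MU stood at -0.81 (edgeR adjusted p = 0.04503), 1 member called. In MU, same-numbered male and female libraries correlated at -0.045 to 0.208, with 2 of 6 over 0.1. The MU and EN sums of one library, treated as paired, correlated at 0.023 to 0.296, with 6 of 13 over 0.1. Number 1 stood at 0.107 in MG and 0.294 in OPC-OL, but at -0.091 in N. These correlations are too alike to decide whether the numbers pair the libraries. With 30 to 80 MU cells per library, only 11 of the 50 members could be tested with the filter between MU and EN.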
